A study of Mus musculus with 6 samples.

Results

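The open chromatin of 5 genes was described across 3 sorted cell populations of mouse bone marrow. The genes encode the surface proteins used to sort the cells, CD138 (Sdc1), TACI (Tnfrsf13b) and B220 (Ptprc), together with the other 2 receptors of the cytokines BAFF and APRIL, the BAFF receptor (Tnfrsf13c) and BCMA (Tnfrsf17). Their regions were taken from the peaks of all 6 libraries, with overlaps of 1 bp or more merged into 1 region. A merged region belonged to the protein-coding gene whose interval lay nearest, up to a limit of 100 kb. Of 69171 merged regions, 49 belonged to the 5 genes: 21 to Ptprc, 13 to Sdc1, 9 to Tnfrsf13b, 4 to Tnfrsf17 and 2 to Tnfrsf13c. Of the 49, 25 overlapped their gene and 24 lay outside it, and 0 overlapped more than 1 gene. The annotation used gives no exons, so a region within a gene was not placed further.

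BAFF and APRIL are cytokines of the TNF family that keep B cells and plasma cells alive. The BAFF receptor binds BAFF and serves mainly naive B cells, TACI and BCMA bind both cytokines, and BCMA is known for the survival of plasma cells in the bone marrow. CD138 is a heparan sulfate proteoglycan of plasma cells and epithelia whose sugar chains can hold APRIL at the cell surface. B220 is an isoform of the phosphatase CD45 that is made by alternative splicing of Ptprc RNA in B cells, and Ptprc itself is active in nearly all white blood cells.

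The assay was ATAC-seq: a transposase cuts open DNA and tags it for sequencing. The cells were sorted from naive Adig mice of the Balb/c strain, whose GFP reporter follows the autoimmune regulator Aire. All 3 populations came from these reporter mice, with 2 libraries each. The gate AireGFP-B220-CD138+TACI+ gave the plasma cells. The pc-BMACs differ from it by their reporter (AireGFP+B220-CD138+TACI+). AireGFP-B220+CD138-TACI-IgM+ was the gate of the immature B cells. Each library was made from 2000 to 15000 sorted cells, and the labels give neither the age of the mice nor whether replicates are separate animals.

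The 6 peak lists held 34070 to 51643 peaks with median widths of 386.5 to 523 bp, and the immature B cell lists were the longest. Depth is unknown because the lists give peaks without read counts, and a region without a peak is described as not called rather than closed. Nor can a peak that came from a minority of the sorted cells be told apart from one present in all of them. With 2 libraries against 2, the smallest two-sided exact permutation p is 0.333, so differences are given as calls in both libraries of one population and neither of another, beside the share of all regions that did the same. Marker genes were also looked up. A list of 6 plasma cell genes holds Sdc1 and Tnfrsf17, which are described below, so it is no separate check of them. The starts of the other 4, Prdm1, Xbp1, Irf4 and Jchain, were called in each plasma cell and pc-BMAC library, and in the immature B cell libraries that of Jchain was not. Regions of all 6 were called 37 and 35 times in plasma cells, 35 and 35 in pc-BMACs and 37 and 33 in immature B cells. Regions of 7 B cell genes were called 46 and 48 times in plasma cells, 42 and 30 times in pc-BMACs and 62 and 60 times in immature B cells. Of all merged regions, the libraries called 51.8% and 50.5%, 54.7% and 47.4%, and 74.1% and 64.8% in the same order. More calls in immature B cells were thus found over all regions too. The B cell starts were called at 2 and 1, 3 and 0, and 3 and 2 genes, though some of the 7 have no start window. Of 6 erythroid genes, 6 had a called region in plasma cells 1, against 1 or 2 in each of the other libraries. The T cell, NK cell, myeloid and dendritic lists had called regions at 2 to 4, 2 to 4, 2 to 4 and 4 to 5 genes per library. Cd8a, Ncr1 and Elane had none, and Trac is not a protein-coding entry of the annotation used. Other genes of these lists did have calls. The region and start of S100a8 were called in both plasma cell libraries alone. Prf1 had 3 and 3 called regions in plasma cells, 0 and 0 in pc-BMACs and 1 and 1 in immature B cells. The start of Cd3g was called in all libraries but immature B cells 2. The part of other cells in the calls of the 5 genes was not tested.

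The promoters of the 3 receptors are shown because peaks there were missing in 1 population (Tnfrsf13b, Tnfrsf17) or differed in width (Tnfrsf13c). The windows run from 250 bases before to 50 bases after the RefSeq start site (GRCm38.p6, the assembly that mm10 names), 5′ to 3′ on the strand of the gene. Capitals mark matches to any of the 9 motifs searched. The windows are chr11:61126505-61126804 on the plus strand for Tnfrsf13b, chr16:11313559-11313858 on the plus strand for Tnfrsf17 and chr15:82224331-82224630 on the minus strand for Tnfrsf13c.
Tnfrsf13b: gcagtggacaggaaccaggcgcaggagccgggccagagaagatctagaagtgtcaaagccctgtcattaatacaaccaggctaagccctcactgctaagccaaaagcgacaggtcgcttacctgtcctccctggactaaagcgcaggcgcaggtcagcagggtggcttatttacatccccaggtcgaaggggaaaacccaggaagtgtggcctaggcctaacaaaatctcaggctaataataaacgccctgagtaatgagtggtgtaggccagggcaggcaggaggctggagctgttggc
Tnfrsf17: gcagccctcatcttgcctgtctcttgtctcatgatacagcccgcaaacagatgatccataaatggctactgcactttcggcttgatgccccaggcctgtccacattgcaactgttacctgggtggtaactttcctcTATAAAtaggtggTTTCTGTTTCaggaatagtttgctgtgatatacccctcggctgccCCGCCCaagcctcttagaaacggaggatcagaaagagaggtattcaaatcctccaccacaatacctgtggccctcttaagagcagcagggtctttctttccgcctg
Tnfrsf13c: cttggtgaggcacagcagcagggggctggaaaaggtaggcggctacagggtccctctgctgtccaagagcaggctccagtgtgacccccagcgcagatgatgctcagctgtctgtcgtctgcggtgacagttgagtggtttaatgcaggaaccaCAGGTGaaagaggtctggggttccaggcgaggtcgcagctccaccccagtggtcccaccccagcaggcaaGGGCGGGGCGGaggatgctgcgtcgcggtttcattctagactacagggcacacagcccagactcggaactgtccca

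The 9 motifs were searched on both strands. Of these, 3 are given by name: the NF-kB site, the interferon response type and the ETS-IRF composite type. E proteins are known to bind CACCTG and AP-1 binds TGANTCA. The stress factors XBP1 and ATF6 bind sites with the core ACGTG. Another element was the CCAAT box. The GC box was searched as GGGCGG. The last element, TATAAA, is a binding site of the basal transcription machinery. The Tnfrsf13b window held none of them. The Tnfrsf17 window held TATAAA at position -114 from the start site, an interferon response match at -101 and a GC box at -56. The Tnfrsf13c window held an E protein match at -96 and a pair of GC boxes at -26 and -21 that share a base. Of 17492 promoter windows of protein-coding genes, 3.4% held the interferon response type, 19.3% CACCTG, 46.3% GGGCGG and 13.3% TATAAA. The motifs found in none of the 5 windows were the ETS-IRF composite type, TGANTCA and ACGTG, which 2.63%, 7.08% and 20.7% of windows held. The Sdc1 window held 3 GC boxes, 1 CCAAT and 1 NF-kB match, the last 2 of which are found in 39.0% and 8.86% of windows, and the Ptprc window, the first of 2 listed for that gene, held 1 TATAAA. The G+C content was 66.3% at Sdc1, 61.7% at Tnfrsf13c, 55.3% at Tnfrsf13b, 50.0% at Tnfrsf17 and 33.7% at Ptprc, against a median of 56.3% over all windows. A match is a run of letters and not a bound site.

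The starts of Tnfrsf13b and Tnfrsf17 were called in both plasma cell and both pc-BMAC libraries and in neither immature B cell library. Those of Sdc1, Tnfrsf13c and Ptprc were called in all 6. Over all 17492 windows, 46.0% were called in all 6 libraries and 0.434%, 76 genes, had the pattern of Tnfrsf13b and Tnfrsf17. Another of the 76 was Jchain, which encodes the joining chain of secreted IgM and IgA. TACI is also a sort gate, so its presence among the 76 is a description. The reverse pattern, a call in both immature B cell libraries and no other, was found at 0.806% of windows and at 0 of the 5 genes. The calls at the start windows stayed as they were with a minimum cover of 50% of the window and in lists of equal length.

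**Figure D1:**
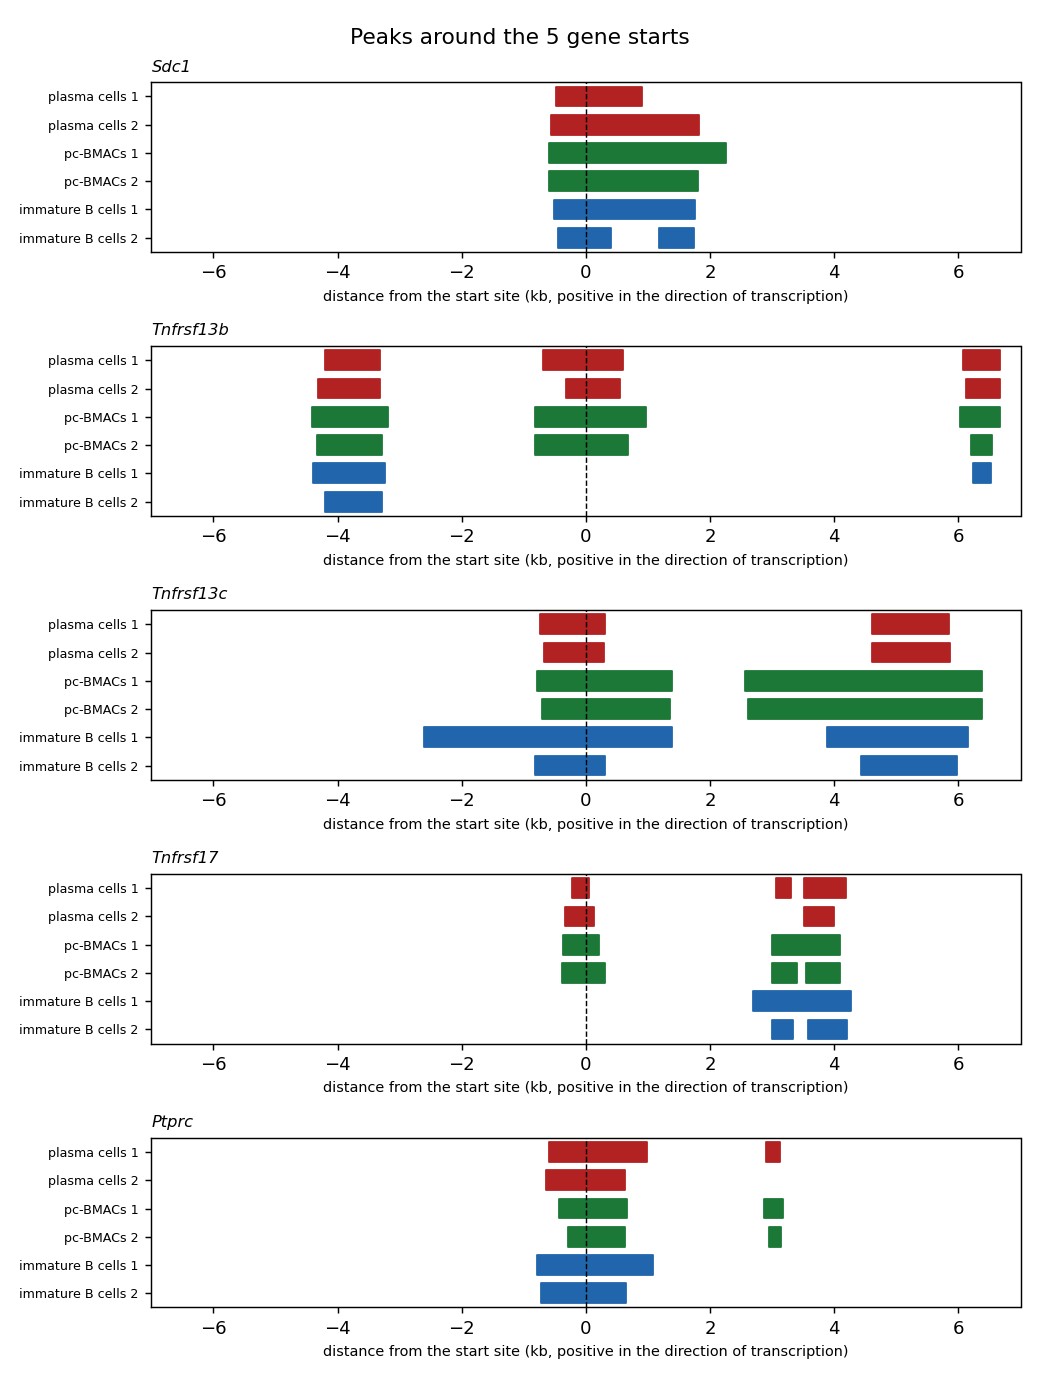
Peaks of the 6 libraries (bars, coloured by population) around the start sites of the 5 genes; the x axis is the distance from the start site in kb. At Tnfrsf13b and Tnfrsf17 the 4 libraries of plasma cells and pc-BMACs have a peak across the start and the 2 immature B cell libraries have none.

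Tnfrsf13b (chr11:61126283-61153170, plus strand) encodes TACI, the receptor that separates the sort gates. Of its 9 regions, the start region (chr11:61125928-61127723) was covered by peaks of 1284 and 878 bp in plasma cells 1 and 2 and of 1796 and 1488 bp in pc-BMACs 1 and 2. No immature B cell peak fell in it, and their nearest peaks lay 2989 and 3040 bp from the promoter window. The locus was nevertheless called widely in immature B cells, with 8 and 7 of the 9 regions in the 2 libraries. Plasma cells called 8 and 8, and pc-BMACs 8 and 7. The libraries of the 3 populations overlap in these counts, and each library's share exceeds its median share of called regions over the 4386 genes with at least 5 regions, which ran from 46.2% to 75.0% per library, against 77.8% to 88.9% for Tnfrsf13b. Upstream of the start, 4 regions lying 3189 to 16313 bp away were called in all 6 libraries. The nearest of these, chr11:61122338-61123566, had peaks of 884 and 1011 bp in plasma cells, 1229 and 1048 bp in pc-BMACs and 1165 and 922 bp in immature B cells. A region 6027 bp into the gene was called in 5 libraries, with 600 and 548 bp in plasma cells, 635 and 333 bp in pc-BMACs and 287 bp in immature B cells 1. The last region of the gene, 13975 bp from the start, was called in all 6. Farther upstream, 22034 bp from the start, chr11:61104168-61104721 had immature B cell peaks (554 and 429 bp) and no peak in the other 4 libraries. The outermost region, 23423 bp upstream, was called in all libraries but pc-BMACs 2. At TACI the populations thus differed at 2 regions, the start and one distant region, in opposite directions.

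Tnfrsf17 (chr16:11313232-11320074, plus strand) encodes BCMA and had 4 regions. Plasma cells called 4 and 3 of them, pc-BMACs 4 and 4, and immature B cells 2 and 1. Both plasma cell and both pc-BMAC libraries exceeded both immature B cell libraries, as did 6.20% of the 15183 genes with a region for plasma cells and 9.95% for pc-BMACs. The start region (chr16:11313431-11314113) had peaks of 272 and 467 bp in plasma cells and of 581 and 683 bp in pc-BMACs, and the nearest immature B cell peaks lay 2642 and 2942 bp from the promoter window. Those peaks belong to the region 2691 bp downstream within the gene, chr16:11316500-11318071, which was called in all 6 libraries. Peaks covered 923 and 473 bp of it in plasma cells, 1097 and 956 bp in pc-BMACs and 1572 and 978 bp in immature B cells. Upstream of the gene, a region 15795 bp from the start was called in 5 libraries, with 150 bp, the narrowest peak width in the files, in immature B cells 1. The region farthest upstream, 27403 bp from the start, was called in plasma cells 1 (254 bp) and in both pc-BMAC libraries (580 and 389 bp). The next gene downstream, Snx29, begins 2786 bp past the end of Tnfrsf17, and Gspt1 lies 58906 bp upstream. The body of BCMA was therefore called in immature B cells and its start was not.

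Tnfrsf13c (chr15:82221742-82224380, minus strand), the gene of the BAFF receptor, had 2 regions, both called in all 6 libraries. At the start region (chr15:82222992-82226987) peaks spanned 1052 and 965 bp in plasma cells, 2182 and 2072 bp in pc-BMACs, and 3995 and 1129 bp in immature B cells. The pc-BMAC peaks were wider than those of plasma cells, while the immature B cell libraries lay on both sides of the pc-BMACs. The other region, chr15:82218000-82221819, meets the far end of the gene, which is 2639 bp long, only through the pc-BMAC peaks. These begin 2561 and 2613 bp from the start. The plasma cell peaks begin at 4602 and 4610 bp and the immature B cell peaks at 3884 and 4427 bp, past the gene. Peaks covered 1251 and 1256 bp of this region in plasma cells, 3816 and 3768 bp in pc-BMACs and 2270 and 1546 bp in immature B cells. Here both pc-BMAC libraries exceeded the other 4. The neighbouring genes are Shisa8, 8893 bp away, and Cenpm, 9381 bp away.

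Sdc1 (chr12:8771396-8793716, plus strand), which encodes CD138, had 13 regions, of which plasma cells called 9 and 9, pc-BMACs 6 and 7, and immature B cells 11 and 8. Both plasma cell libraries exceeded both pc-BMAC libraries, as did 12.2% of genes, and both immature B cell libraries exceeded them too, as did 32.5%. The start region (chr12:8770796-8773653) was called throughout, with 1392 and 2395 bp in plasma cells, 2858 and 2406 bp in pc-BMACs and 2273 and 1418 bp in immature B cells. Both pc-BMAC libraries were above the other 4, though 2406 bp is close to the 2395 bp of plasma cells 2, and plasma cells and immature B cells overlapped. After scaling by the library's median, plasma cells 2 (3.42) was above both pc-BMAC libraries (3.15 and 3.14). Within the gene the populations separated. The region 8453 bp from the start, chr12:8779849-8782427, had 892 and 1041 bp in plasma cells, 2487 and 1688 bp in pc-BMACs and 150 and 150 bp in immature B cells, the narrowest width the files hold. The region 18879 bp from the start, chr12:8790275-8791716, had 538 and 574 bp in plasma cells, 1435 and 1114 bp in pc-BMACs and no peak in immature B cells. Between them, chr12:8786254-8787678 had 1247 and 1378 bp in plasma cells but 524 bp in pc-BMACs 2, 231 bp in immature B cells 1 and no peak in the other 2 libraries.

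The remaining 9 regions of Sdc1 lay outside the gene, 1 upstream and 8 downstream in the interval before Laptm4a, whose gene begins 127590 bp past the end of Sdc1. Immature B cells alone called the upstream region, 8451 bp before the start (252 and 150 bp), and a downstream region 60425 bp from it (493 and 271 bp). A region 73130 bp downstream, chr12:8844526-8845770, was called in plasma cells (390 and 421 bp) and immature B cells (1245 and 842 bp) and in neither pc-BMAC library. At 82957 bp downstream, plasma cells (227 and 387 bp) and immature B cells 1 (566 bp) had a peak and pc-BMACs had none. Of the 2 distant regions called in all 6 libraries, the one 57553 bp downstream had 1160 and 1019 bp in plasma cells, 1121 and 1109 bp in pc-BMACs, and 829 and 579 bp in immature B cells. The other downstream regions were called in all libraries but immature B cells 2 (69174 bp away), in all 6 (74880 bp), in immature B cells 2 alone (66653 bp, 150 bp wide) and in immature B cells 1 alone (82659 bp, 190 bp wide). The upstream region lay 8450 bp from Sdc1, in an interval of 18812 bp to Pum2. Those 82659 and 82957 bp downstream lay 60338 and 60636 bp from Sdc1. All 3 were near the middle of their interval, so their assignment rests on a small difference in distance. At 2 of the 4 regions within Sdc1 both CD138+ populations had wider peaks than immature B cells, while the 2 regions called in immature B cells alone lay outside the gene.

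**Figure D2:**
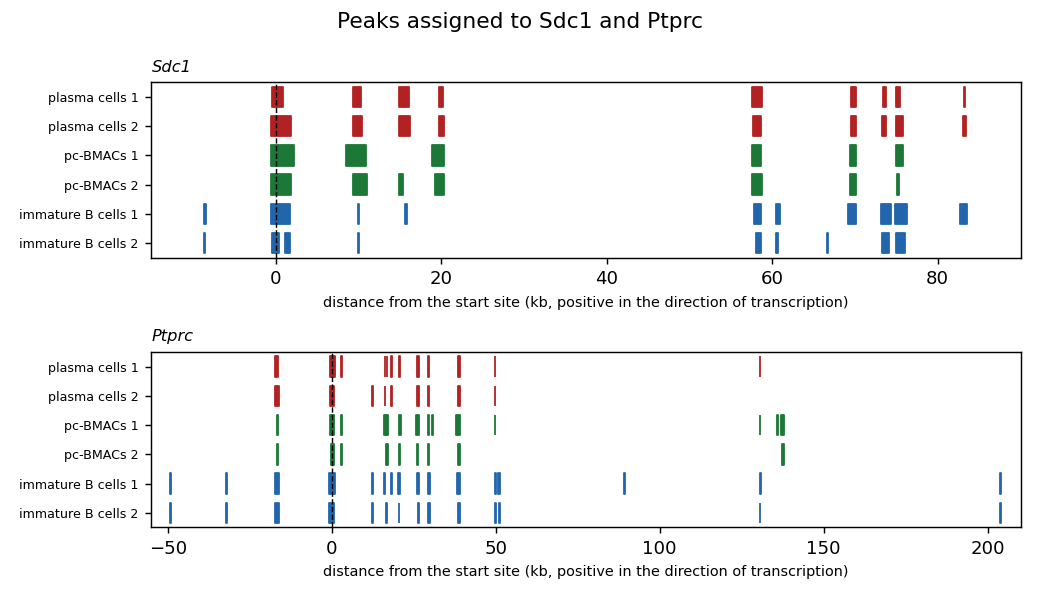
Peaks assigned to Sdc1 and Ptprc in the 6 libraries, by distance from the start site in kb (the x axes have different ranges). At 8453 and 18879 bp into Sdc1 the plasma cell and pc-BMAC peaks are wide and the immature B cell peaks are 150 bp or missing, and the outermost Ptprc peaks on both sides are from immature B cells.

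Ptprc (chr1:138062859-138175756, minus strand) encodes CD45. Of its 21 regions, plasma cells called 12 and 9, pc-BMACs 14 and 9, and immature B cells 16 and 14. Immature B cells exceeded plasma cells in both libraries, as did 30.7% of genes, and pc-BMACs 1 equalled immature B cells 2. In 10 of the 21 regions (47.6%) the libraries of every population were alike, against 41109 of all 69171 regions (59.4%). The Ptprc share was the lowest of the 5 genes, though at Tnfrsf17 it was 2 of 4 (50.0%). Of the 49 regions, which include these 21, 29 were alike. The start region (chr1:138174221-138176093) was called in all 6 libraries, with 1571 and 1269 bp in plasma cells, 1100 and 921 bp in pc-BMACs, and 1873 and 1368 bp in immature B cells. The B220- pc-BMACs had the narrowest peaks there, and the B220- plasma cells overlapped with the B220+ immature B cells. A region 16184 bp upstream, chr1:138191489-138192627, had 916 and 988 bp in plasma cells, 288 and 256 bp in pc-BMACs and 1139 and 1097 bp in immature B cells, so the pc-BMACs were lowest. Within the gene, 3 further regions, 25829 to 37869 bp from the start, were called in all 6.

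Immature B cells alone called 4 of the 21 Ptprc regions, and 9904 of all 69171 merged regions. The 4 lay 48989 and 31925 bp upstream of the start, 50805 bp into the gene and 203749 bp from the start beyond its far end, and their widths in the 2 libraries were 150 to 494 bp. The pc-BMACs alone called 1, chr1:138037501-138038214, past the far end of the gene, with 714 and 532 bp. In plasma cells alone there was none. Of all merged regions, pc-BMACs alone called 3054 and plasma cells alone 1041. Plasma cells (281 and 240 bp) and immature B cells 1 (302 bp) shared a region 17940 bp into the gene that pc-BMACs lacked. A region 2864 bp into the gene was called in both pc-BMAC libraries (318 and 189 bp), plasma cells 1 (228 bp) and no immature B cell library. Of the other 9 regions of Ptprc, 3 were called in 1 library each, 1 in 3 libraries, 3 in 4 and 2 in 5, with peaks of 150 to 673 bp. One of them, 12210 bp into the gene, had peaks in plasma cells 2 (226 bp) and the immature B cells (311 and 194 bp) and none in pc-BMACs. The neighbouring genes are Nr5a2, 1102410 bp away, and Atp6v1g3, 97981 bp away. The outermost upstream region lay 48537 bp from Ptprc, near the middle of the interval to Atp6v1g3, so its assignment rests on a small difference in distance.

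**Figure D3:**
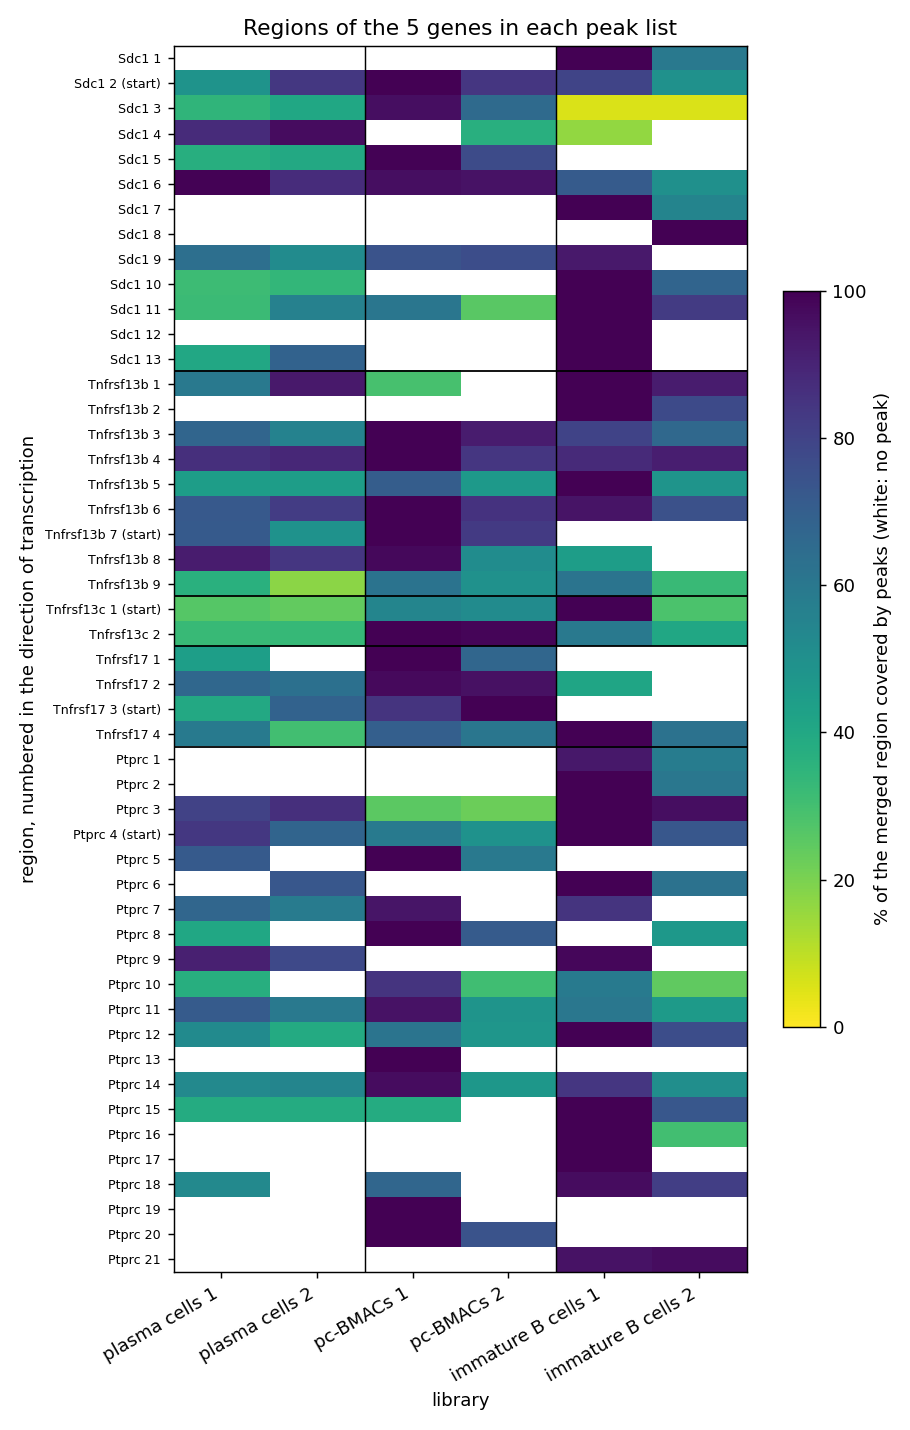
The 49 regions (rows, numbered within each gene in the direction of transcription) in the 6 libraries (columns); colour is the percentage of the merged region covered by peaks, and white means no peak. In all, 17 rows are filled in all 6 columns, 7 in the immature B cell columns alone and 3 in the plasma cell and pc-BMAC columns alone. Of all 69171 merged regions, 20468, 9904 and 2529 had these patterns.

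Over the 5 genes together, 17 of the 49 regions (34.7%) were called in all 6 libraries, against 29.6% of all merged regions. Immature B cells lacked 3 regions that both plasma cells and pc-BMACs had: the starts of Tnfrsf13b and Tnfrsf17 and the region 18879 bp into Sdc1. Over all 69171 merged regions, 2529 had this pattern. Immature B cells alone had 7 regions, 4 of Ptprc, 2 of Sdc1 and 1 of Tnfrsf13b, and 9904 of all 69171. Against immature B cells, plasma cells had 3 of 46 regions of their own (6.52%, against 6.35% of all regions) and immature B cells 7 (15.2%, against 19.0%). Against plasma cells, pc-BMACs had 1 of 39 (2.56%, against 8.42%), and plasma cells 3 (7.69%, against 9.46%). Against immature B cells, pc-BMACs had 6 of 49 (12.2%, against 10.3%), and immature B cells 9 (18.4%, against 24.1%). The shares differed from those of all regions by less than 6 percentage points in each of the 6 comparisons, so the counts say little about the 5 genes as a group. Comparisons with a population in common share its libraries. The counts moved when each list was reduced to its 34070 widest peaks, which makes the lists equally long and also leaves out immature B cell peaks narrower than 323 and 246 bp, while plasma cell peaks down to 150 bp remain. In these lists plasma cells had 9 and immature B cells 2 in their comparison, and pc-BMACs 10 and immature B cells 4 in theirs. The shares of all regions were not computed in lists of equal length. Plasma cells against immature B cells also had 10 without immature B cells 1 and 5 without plasma cells 2. Between pc-BMACs and plasma cells, the count for pc-BMACs was 7 with a minimum cover of 50%, 5 without plasma cells 1 and 3 without pc-BMACs 2, and that for plasma cells was 6 without pc-BMACs 1.

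**Figure D4:**
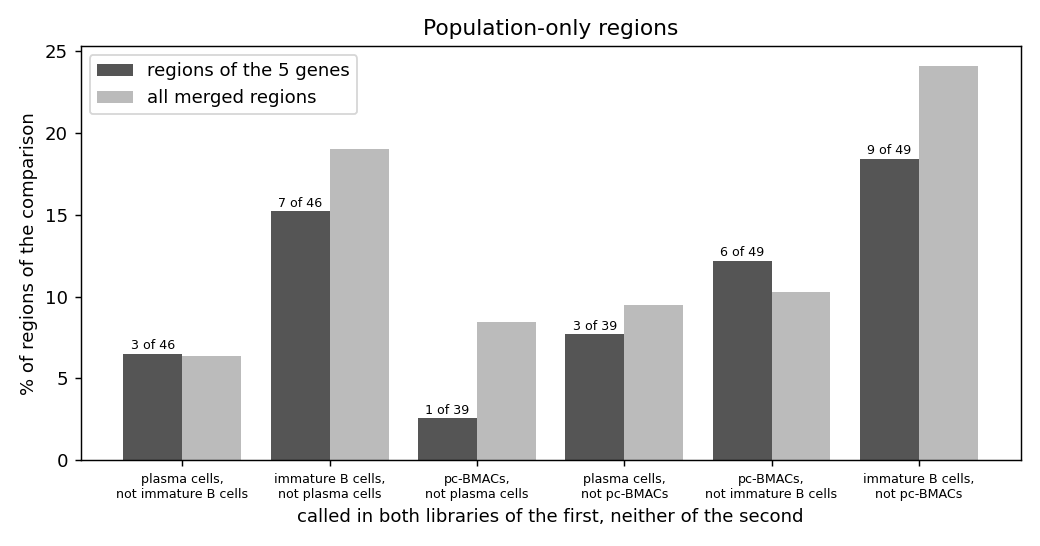
Percentage of regions called in both libraries of the first population and neither of the second, for the regions of the 5 genes (dark bars, with counts) and for all merged regions (light bars). Plasma cells against immature B cells has 3 of 46 regions beside 6.35% of all regions, and pc-BMACs against plasma cells 1 of 39 beside 8.42%.

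Within plasma cells, 6 of the 36 called regions were called in 1 library, 5 of them in plasma cells 1. These 5 were 4 regions of Ptprc and the outermost region of Tnfrsf17. In pc-BMACs 7 of 35 regions were called in 1 library, 6 of them in pc-BMACs 1. In immature B cells the numbers were 11 of 41, with 9 in immature B cells 1. Over all regions replicate 1 also held more of the regions called in 1 library. These were 5190 of 9508 in plasma cells, 7182 of 9323 in pc-BMACs and 9452 of 12479 in immature B cells. The percentages called in 1 library, 16.7, 20.0 and 26.8, compare with 23.7, 23.3 and 23.0 over all regions. Whether the erythroid calls of plasma cells 1 bear on these regions was not tested.

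In the 17 regions called in all 6 libraries, the base pairs under peaks were also compared, after division by the library's median over all 20468 such regions, since lists differed in peak width. A difference was counted when the lower library of one population was at least 2 times the higher library of the other. This threshold was added after the peaks had been seen. Without it, both plasma cell libraries exceeded both immature B cell libraries at 5 of the 17 regions (32.8% of all such regions). The reverse held at 4 (24.2%). For pc-BMACs over plasma cells the count was 5 (22.3%), and for the reverse 4 (33.0%). For pc-BMACs over immature B cells it was 8 (28.8%), and for the reverse 5 (27.5%). With the threshold, 3 of the 17 regions passed. At the region 8453 bp into Sdc1 the scaled extents were 1.25 and 1.49 in plasma cells, 2.74 and 2.2 in pc-BMACs, and 0.15 and 0.2 in immature B cells. It counted for plasma cells and for pc-BMACs against immature B cells, as did 1.64% and 3.21% of all such regions. At the region upstream of Ptprc they were 1.29 and 1.41 in plasma cells, 0.32 and 0.33 in pc-BMACs, and 1.1 and 1.43 in immature B cells, so it counted for both against pc-BMACs (1.23% and 3.27% of all such regions). At the second region of Tnfrsf13c, where only pc-BMAC peaks reach the gene, they were 1.76 and 1.79 in plasma cells, 4.21 and 4.91 in pc-BMACs, and 2.2 and 2.02 in immature B cells. It counted for pc-BMACs against plasma cells (1.09% of all such regions) and missed the threshold against immature B cells. No region counted for immature B cells against plasma cells (1.28% of all such regions). Leaving out a library moved these counts. Plasma cells against immature B cells had 3 without immature B cells 2 and 2 without plasma cells 2, and the reverse had 1 without either. For pc-BMACs against immature B cells there were 3 without immature B cells 1, and 2 without immature B cells 2 or without pc-BMACs 1. Immature B cells against pc-BMACs had 3 without pc-BMACs 2 and 2 without pc-BMACs 1. The count was 2 for pc-BMACs against plasma cells without plasma cells 1, and 2 for the reverse without pc-BMACs 2. In lists of equal length the Sdc1 region had no immature B cell peak, since peaks of 150 bp are left out of their lists, while the peaks of the other 4 libraries remained. It then left the regions called in all 6 and was one of the 9 that plasma cells had and immature B cells lacked.

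**Figure D5:**
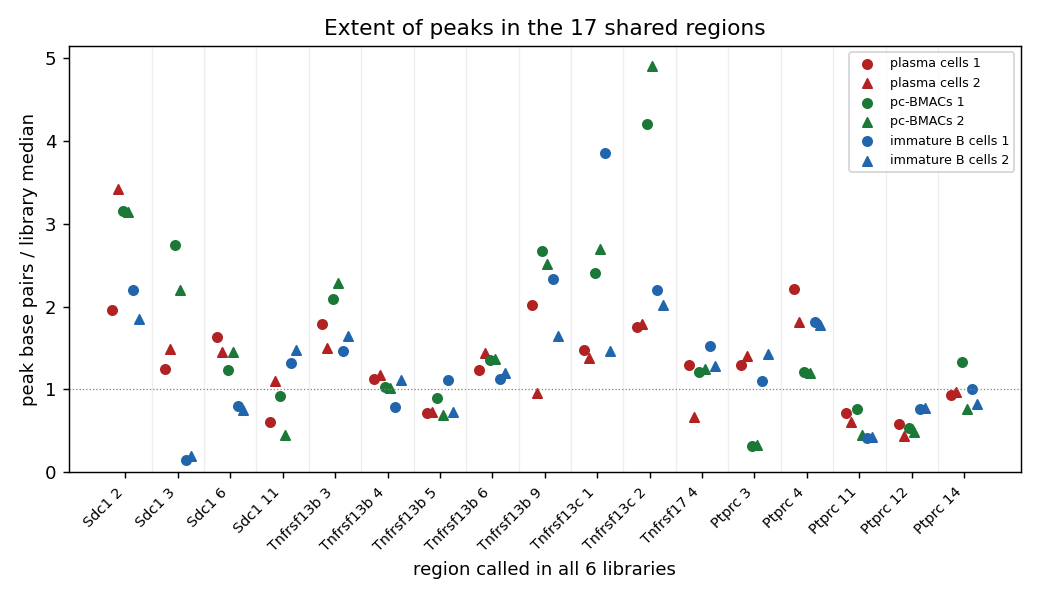
Base pairs under peaks in the 17 regions called in all 6 libraries, divided by the library's median over all regions called in all 6 (points by library, coloured by population; dotted line at 1). Region 3 of Sdc1 is lowest in immature B cells, region 3 of Ptprc is lowest in pc-BMACs and region 2 of Tnfrsf13c is highest in pc-BMACs.

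Genes with the most similar share of called regions over the 6 libraries were found by Euclidean distance among the 4386 genes with at least 5 regions. Nearest to Sdc1 were Adar (distance 0.08), Arhgap23 (0.12) and Rsph1 (0.15). Nearest to Tnfrsf13b were Coro7 (0.11), Lmna (0.12) and Rab14 (0.12), and nearest to Ptprc were Smad6 (0.07), Usp3 (0.08) and Sertad2 (0.1). Adar, for example, had 4 and 4 of 6 regions in plasma cells, 3 and 3 in pc-BMACs and 5 and 4 in immature B cells. Tnfrsf13c and Tnfrsf17 had too few regions for this measure.

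The genes of the ligands, Tnfsf13b (BAFF) and Tnfsf13 (APRIL), had 0 regions each, and their start windows were called in 0 of 6 libraries. The receptors signal through TRAF adaptors and NF-kB. Of 14 such genes, 14 had a region, 89 in all, and pc-BMACs had 6 of 69 regions that plasma cells lacked (8.7%) and plasma cells 2 (2.9%). Against immature B cells plasma cells had 4 of 74 (5.41%) and immature B cells 14 (18.9%), while pc-BMACs had 11 of 85 (12.9%) and immature B cells 15 (17.6%). Of all regions, the shares in the same order were 8.42%, 9.46%, 6.35%, 19.0%, 10.3% and 24.1%. Without plasma cells 2 the plasma cell counts were 10 against immature B cells and 7 against pc-BMACs (4 without plasma cells 1), without immature B cells 2 those of immature B cells were 23 and 25, and without pc-BMACs 2 those of pc-BMACs were 16 and 20. In lists of equal length the counts of immature B cells were 9 and 9. Nfkb1, which encodes the p50 subunit, was called at 11 and 7 regions in the plasma cell lists, 16 and 13 in pc-BMACs and 13 and 12 in immature B cells. Traf3, an inhibitor of the alternative NF-kB pathway, had 5 and 6, 13 and 7, and 7 and 7 in the same order. Traf5, another adaptor, had 5 and 6, 5 and 5, and 8 and 7.

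The enzymes that cut the receptors from the membrane, the gamma-secretase subunits and ADAM proteases, had 35 regions at 6 of 7 genes. Of 29 regions pc-BMACs had 0 that plasma cells lacked (0.0%, against 8.42% of all regions) and plasma cells 1 that pc-BMACs lacked (3.45%, against 9.46%). Against immature B cells, plasma cells had 4 of 33 (12.1%, against 6.35%) and pc-BMACs 6 of 34 (17.6%, against 10.3%). In the opposite direction there were 5 and 5 (15.2% and 14.7%, against 19.0% and 24.1%). Without immature B cells 2 these last were 9 and 8, without plasma cells 2 plasma cells had 7 against immature B cells, and without pc-BMACs 2 pc-BMACs had 4 against plasma cells. That last count was 2 without plasma cells 2, and 1 without plasma cells 1 or pc-BMACs 1, and its reverse was 2 without either plasma cell library. With a minimum cover of 50%, pc-BMACs had 7 that plasma cells lacked and plasma cells 0. Immature B cells then had 8 that plasma cells lacked and plasma cells 2, and in lists of equal length these were 2 and 2. Adam17 was called at 5 and 5 regions in the plasma cell lists, 8 and 6 in pc-BMACs and 5 and 5 in immature B cells. Adam10, which sheds TACI, had 4 and 4, 6 and 4, and 7 and 5, and Psen2, a catalytic subunit of gamma-secretase, had 8 and 9, 8 and 8, and 9 and 7. Survival genes that the receptors are known to act on had 69 regions at 5 of 5 genes. Mcl1, on which plasma cells depend through BCMA, had calls at 4 and 4 regions in plasma cells, 3 and 3 in pc-BMACs and 3 and 3 in immature B cells, and its start was called in all 6. Bcl2 had 18 and 14, 30 and 19, and 22 and 16. Of its 37 regions, counted over all 3 populations, 5 were called in pc-BMACs and not in plasma cells, with 0 the other way. Of all regions called in pc-BMACs or plasma cells, 8.42% and 9.46% had these patterns. Bcl2l1 had 10 and 8, 12 and 8, and 11 and 11. Over the list, pc-BMACs had 5 of 58 regions that plasma cells lacked (8.62%, against 8.42% of all regions) and plasma cells 2 (3.45%, against 9.46%). Of 66 regions pc-BMACs had 9 that immature B cells lacked (13.6%, against 10.3%) and immature B cells 3 (4.55%, against 24.1%). Plasma cells had 4 of 56 (7.14%, against 6.35%) and immature B cells 5 (8.93%, against 19.0%). Without pc-BMACs 2 the pc-BMAC counts were 17 and 19, and without plasma cells 1 the first was 9. Without plasma cells 2 those of plasma cells were 5 against pc-BMACs, as without pc-BMACs 1, and 9 against immature B cells. Those of immature B cells against plasma cells were 14 without immature B cells 2 and 8 without plasma cells 1, and against pc-BMACs 12 without immature B cells 2 and 11 without pc-BMACs 1. With a minimum cover of 50%, immature B cells had 10 against plasma cells and 5 against pc-BMACs.

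Kinases and partners of CD45 had 112 regions at 10 of 10 genes. Immature B cells had 34 of 108 regions that pc-BMACs lacked (31.5%) and 27 of 104 that plasma cells lacked, with 7 and 8 in the opposite direction. Plasma cells had 12 of 79 regions that pc-BMACs lacked (15.2%, against 9.46%) and pc-BMACs 6 (7.59%, against 8.42%). Without pc-BMACs 2 the pc-BMAC counts were 14 and 14. In lists of equal length immature B cells had 19 regions that pc-BMACs lacked and 10 that plasma cells lacked, with 7 and 7 in the opposite direction. Pag1, a membrane adaptor that anchors the kinase Csk, was called at 9 and 9 of 30 regions in plasma cells, 6 and 6 in pc-BMACs and 28 and 22 in immature B cells, and it held 17 of the 34. Fyn, a Src family kinase, had 18 and 14, 12 and 9, and 22 and 20, and Lyn, its main relative in B cells, had 9 and 9, 14 and 9, and 12 and 10, in the same order. Splicing factors, of which Hnrnpll is known to set the CD45 isoform, had 29 regions at 5 of 5 genes. Hnrnpll had 7 and 6 called regions in plasma cells, 6 and 8 in pc-BMACs and 10 and 7 in immature B cells. Hnrnpl had 3 and 3, 1 and 1, and 3 and 2, and Srsf3 had 4 and 6, 5 and 3, and 6 and 6. Over the list, plasma cells had 4 of 23 regions that pc-BMACs lacked (17.4%, against 9.46% of all regions) and pc-BMACs 1 (4.35%, against 8.42%). Immature B cells had 6 of 29 that pc-BMACs lacked (20.7%, against 24.1%) and pc-BMACs 3 (10.3%, against 10.3%). Immature B cells had 2 of 26 that plasma cells lacked (7.69%, against 19.0%) and plasma cells 1 (3.85%, against 6.35%). Without immature B cells 2 the immature B cell counts were 11 and 6, and the latter was 4 without plasma cells 2. Plasma cells had 3 against immature B cells without plasma cells 2 and 2 without immature B cells 1. The pc-BMAC count against plasma cells was 2 without plasma cells 1 or either pc-BMAC library, and against immature B cells 5 without pc-BMACs 1. In lists of equal length immature B cells had 3 against pc-BMACs and 1 against plasma cells.

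The other syndecans and the enzymes of heparan sulfate, the sugar carried by CD138, had 82 regions at 8 of 9 genes, with 0 at Sdc2. Of 62 regions, pc-BMACs had 8 that plasma cells lacked (12.9%, against 8.42% of all regions) and plasma cells 5 (8.06%, against 9.46%). Of 77, pc-BMACs had 13 that immature B cells lacked (16.9%, against 10.3%) and immature B cells 13 (16.9%, against 24.1%). Of 73, plasma cells had 6 that immature B cells lacked (8.22%, against 6.35%) and immature B cells 12 (16.4%, against 19.0%). Without immature B cells 2 both counts of immature B cells were 21, and without plasma cells 2 plasma cells had 11. Against each other, pc-BMACs had 13 without plasma cells 1 and plasma cells 10 without pc-BMACs 1. In lists of equal length immature B cells had 1 that plasma cells lacked and plasma cells 8, so this balance turned, as it did for the 5 genes. Immature B cells then had 5 that pc-BMACs lacked and pc-BMACs 14, and plasma cells had 8 that pc-BMACs lacked and pc-BMACs 7. Without shares of all regions in these lists, whether the turn is particular to this list was not tested. Ext1, a polymerase of the chain, was called at 10 and 8 regions in the plasma cell lists, 6 and 5 in pc-BMACs and 13 and 10 in immature B cells. Hs2st1 and Hs6st1, which sulfate it, had 9 and 9 and 6 and 5 in plasma cells, 10 and 7 and 7 and 7 in pc-BMACs, and 13 and 11 and 5 and 4 in immature B cells. Of the other genes read by the gates, Aire had 1 region, and both that region and its start window were called in all 6 libraries, AireGFP- populations included. Ighm is not a protein-coding entry of the annotation used and was not assigned regions.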

How the data were processed

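The deposited data were 1 peak list per library from ATAC-seq, with 5 columns and no header: chromosome, start, end, name and score. Per the submitters' processing notes, the tools were Bowtie2 2.3.3, HOMER 4.10 and bedtools, with the build mm10. Which step each did, and how peaks were called, is not stated there. A score was deposited by the authors and is 1000 for each peak and carries no information. The narrowest peak spans 150 bp. Merging, assignment to protein-coding genes of a RefSeq table (GRCm38.p6; 15183 received a region) and counting were done in Python 3.11.15 with numpy 2.4.6, and the code was tested on simulated data. Of genes overlapped by a region, the one with the larger overlap was taken. A called region is one with at least 1 peak overlapping it. The scaled extents and their threshold of 2 times were added after the peaks had been seen. Named genes are the 5 genes and their neighbours, up to 3 genes per pathway list with most population-only regions, and the 3 genes most like each gene with at least 5 regions, while Jchain was named after its call was seen, and the pathway genes include Caml under its older name. The members and lists were chosen with earlier results of these data known. Alternatives were a cover of 50%, lists of equal length, assignment within 10 kb or by gene end, each library left out, unscaled extents, and pairs of libraries with the same R number.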

Additional observations from a re-analysis of the deposited data

How the results depend on the processing

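In lists of equal length, population-only regions of the 5 genes numbered 9 for plasma cells and 2 for immature B cells in their comparison, and 10 for pc-BMACs and 4 for immature B cells in theirs, so both balances turned. Shares of all regions were not computed for these lists, so whether the turn is particular to the 5 genes was not tested. These lists differ from the main ones both in length and in the narrow peaks left out, and which of these moved the counts was not tested. With a minimum cover of 50% there were 7 for pc-BMACs against plasma cells and 10 for pc-BMACs against immature B cells. With assignment within 10 kb there were 2 for immature B cells against plasma cells, 0 for pc-BMACs against plasma cells, 1 for plasma cells against pc-BMACs and 3 for immature B cells against pc-BMACs, since fewer regions were assigned. With each library left out, the counts ran from 3 to 10 for plasma cells and from 7 to 9 for immature B cells in their comparison. They ran from 1 to 5 for pc-BMACs and from 3 to 6 for plasma cells, and from 6 to 9 for pc-BMACs and from 9 to 13 for immature B cells. Assignment by the nearest gene end left these 6 counts within 1.5 times. At the start regions of Tnfrsf13b and Tnfrsf17, the 50% cover kept 1 of 2 plasma cell libraries each, 2 of 2 pc-BMAC libraries and 0 immature B cell libraries. Among called regions per gene and population, 26 of 150 values moved by more than the replicate SD, and among pathway list counts 78 of 480 by more than 1.5 times. The 480 include the lists of the ligands (0 regions) and of the other gate genes (1 region), whose counts were 0 in each setting. The unscaled extents, chosen after seeing the data, left the counts of regions at least 2 times wider unchanged in the 6 comparisons run. No paired analysis was possible because no model was fitted and the R numbers in the labels, whose meaning is not stated, are shared by 1 pair of libraries per comparison. Those pairs were compared after seeing the data, with 1 library against 1. Plasma cells had 10 of 42 regions of their own (23.8%, against 12.5% of all regions) and immature B cells 11 (26.2%, against 31.8%). Of 36 regions, pc-BMACs had 1 (2.78%, against 15.4%) and plasma cells 7 (19.4%, against 22.6%). Of 48, pc-BMACs had 9 (18.8%, against 17.6%) and immature B cells 14 (29.2%, against 39.2%). Some of these shares lay further from those of all regions than in the main comparisons. Without read depth, a missing call cannot be told from a weak one.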
